A study of Mus musculus with 4 samples.

Results

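The proteasome genes described here are the constitutive subunits of the 20S core, the subunits of its 19S regulator, the other activators, the inhibitor and the assembly chaperones. They were taken as all protein-coding rows whose Ensembl ID carries a symbol starting with Psma, Psmb, Psmc, Psmd, Psme, Psmf or Psmg and a digit in GENCODE M21, without Psmb8, Psmb9 and Psmb10. The rule found 47 genes among 38282. It also takes Psmc3ip, which is no proteasome subunit but a partner of the ATPase Psmc3 known from meiotic recombination.

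RNA came from naive CD4+ T cells of C57BL/6 mouse spleen that were cultured under the Th0 condition, activation without polarising cytokines. The first group, Th0, had no further agent, and the second, Th0+Dopa, received dopamine. Both were harvested on day 4, and each holds 2 libraries, numbered 2 and 3. The labels name no transgene or deletion, and the sources used here state neither how much dopamine was given nor when.

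The proteasome degrades proteins that carry ubiquitin chains. Its 20S core is a barrel of alpha rings, which gate the entry, around beta rings, which hold the proteolytic sites in Psmb5 (beta5), Psmb6 (beta1) and Psmb7 (beta2). The 19S regulator caps the barrel: its ring of Psmc ATPases unfolds the substrate, and its Psmd subunits bind and remove ubiquitin. In lymphocytes the inducible subunits Psmb8, Psmb9 and Psmb10 can replace the catalytic ones, which gives the immunoproteasome, and the PA28 activator made of Psme1 and Psme2 can take the place of the 19S cap. Interferon gamma is a known inducer of the immunoproteasome and of PA28.

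Values are FPKM (mapped fragments scaled by transcript length and by library size), deposited in 2 tables made separately, the first with the libraries numbered 2 and the second with those numbered 3. Differences were therefore taken within a table, as log2(FPKM + 1) of Th0+Dopa minus Th0. An estimate averages these differences over both tables and stands with its standard error (SE) after ±. Calls rest on limma with the table as a block and a Benjamini-Hochberg adjusted p under 0.05 over all 11423 tested genes, those with a mean of at least 1 FPKM. Whether the libraries of a group stem from separate cultures or animals is not stated, so the p-values cover the spread between these libraries alone, which may be technical.

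All 7 CD4 T cell markers were above 1 FPKM in all 4 libraries, while summed B cell markers reached at most 4.75 FPKM. Summed CD8 T cell markers ran from 3.95 to 6.39 FPKM. Of these, Cd8b1 was above 1 FPKM in every library, at 3.76 and 3.34 in Th0 and 5.98 and 4.19 with dopamine (limma adjusted p = 0.294). Among the T cell markers, Trac was lower with dopamine (-0.70, limma adjusted p = 0.0148) and Cd3d was higher (0.48, limma adjusted p = 0.0398). Summed FPKM was 687066 and 715110 in Th0 2 and Th0 3 and 880583 and 794873 with dopamine, so scaling to a common sum acts along the groups. Markers of other cells moved with the groups: 5 macrophage markers summed to 137 and 158 FPKM in Th0 and to 16.2 and 16.0 with dopamine, and 5 granulocyte and mast cell markers to 299.9 and 408 against 30.1 and 29.3. All 5 macrophage markers were lower in both dopamine libraries, and their part in the results below was not tested. In such bulk samples, fewer cells of a type and less RNA per cell cannot be told apart.

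Of the 47 genes, 45 were tested. Psmb11, the beta5 subunit of the thymus, was listed at 0 in all libraries, and Psma8, the alpha subunit of the testis, stayed between 0.187 and 0.624 FPKM. The other 45 were above 1 FPKM in every library. With dopamine, 9 of these 45 rose, where 5.67% of the 10153 tested protein-coding genes and 6.28% of all tested genes did. A single member fell, 1 of 45, against 4.53% of protein-coding genes and 4.39% of all. The counts by role below are to be read against these same shares. The members that rose were the 20S subunits Psma1, Psma7, Psmb3, Psmb4 and Psmb5, the 20S assembly chaperones Psmg3 and Psmg4, the 19S subunit Psmd3 and the 19S assembly chaperone Psmd5. The member that fell was Psme1. At an unadjusted p under 0.05, 20 members differed in either direction (44.4%), against 27.6% of protein-coding genes and 27.8% of all tested genes. Dopamine was the higher group in each of the tables for 35 of the 45 members (77.8%), against 37.8% of protein-coding genes and 37.6% of all. It was the lower group in each for 4 members, where 33.2% and 32.3% of these genes were lower. The groups did not overlap on the higher side for 35 members, against 31.7% of protein-coding and 31.4% of all genes. On the lower side they did not overlap for Psme1 and Psme2 (4.44%), against 26.6% and 25.6%. The median level of the members in Th0 2 was 112 FPKM, against 13.6 for tested protein-coding genes. With a minimum of 5 FPKM, 32.2% of all tested genes had an unadjusted p under 0.05, against 44.4% of the members. The backgrounds given here were not matched to the members by level or length.

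The median difference of the 45 members was 0.27, against 0.02 for all tested protein-coding genes. It was 0.31 in the libraries numbered 2 and 0.25 in those numbered 3. How far it stood above 0 depended on the scaling of the libraries. With each library scaled to a common FPKM sum, the median of protein-coding genes was -0.21 and that of the members 0.01. With small RNA genes left out first these medians were -0.17 and 0.06. The distance between the members and the protein-coding genes was 0.24 as deposited and between 0.22 and 0.24 under the scalings by a common sum, by a common sum without small RNA and by the median of ratios. A scaling moves all genes of a library by nearly the same amount, so it could hardly change this distance. In fits that left out a library the distance was 0.19 to 0.28, and with the GC and length correction 0.28. The differences below are therefore to be read against the median of protein-coding genes. The 10 called genes kept their sign under these 3 scalings, whose shifts were smaller than the differences of the 10. With the median of ratios, the common sum and the common sum without small RNA, 10, 3 and 7 of the called genes passed. With the common sum these were Psmg4 and Psmb5 on the higher side and Psme1 on the lower side.

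**Figure D1:**
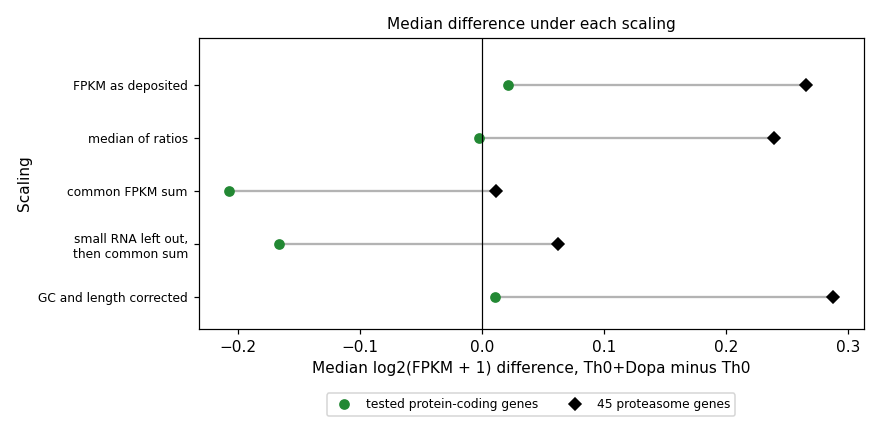
Median difference in log2(FPKM + 1), Th0+Dopa minus Th0 (horizontal axis), under each scaling of the libraries (vertical axis), for 45 proteasome genes (diamonds) and for tested protein-coding genes (circles). Both medians moved down with a common FPKM sum, to 0.01 and -0.21. The distance between the medians was 0.22 there and 0.24 for FPKM as deposited, and a scaling of whole libraries can hardly change it.

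Promoters of 39 members were found in the RefSeq table (GRCm38.p6), each window running from 250 bases before RefSeq's start of the gene to 50 after it. That start can differ from the GENCODE bounds given for the genes below, and the Psme1 window lies inside the gene as GENCODE bounds it. Those of Psmg4 and Psmb5, which had the highest estimates, and of Psme1, which had the lowest, are printed because they stand for the opposite ends of the comparison. Capitals mark matches on either strand to TGACNNNGC, the core of the antioxidant response element, or to a pair of GAAA separated by any 2 bases, the core of the interferon-stimulated response element. The former is bound by NRF1, encoded by Nfe2l1, which is known to raise proteasome genes.
Psmb5, chr14:54617946-54618245, minus strand: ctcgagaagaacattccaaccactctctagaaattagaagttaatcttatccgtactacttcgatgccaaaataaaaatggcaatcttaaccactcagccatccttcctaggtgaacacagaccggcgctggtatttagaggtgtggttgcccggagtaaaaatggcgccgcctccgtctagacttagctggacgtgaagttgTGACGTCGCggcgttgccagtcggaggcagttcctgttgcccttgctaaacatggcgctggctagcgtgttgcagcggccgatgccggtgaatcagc
Psmg4, chr13:34162714-34163013, plus strand: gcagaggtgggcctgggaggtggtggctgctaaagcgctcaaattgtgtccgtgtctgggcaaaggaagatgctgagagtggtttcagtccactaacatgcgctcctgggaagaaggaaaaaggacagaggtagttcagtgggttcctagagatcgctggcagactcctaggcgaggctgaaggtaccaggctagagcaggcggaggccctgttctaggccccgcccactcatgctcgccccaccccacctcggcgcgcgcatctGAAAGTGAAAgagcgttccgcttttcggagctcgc
Psme1, chr14:55578244-55578543, plus strand: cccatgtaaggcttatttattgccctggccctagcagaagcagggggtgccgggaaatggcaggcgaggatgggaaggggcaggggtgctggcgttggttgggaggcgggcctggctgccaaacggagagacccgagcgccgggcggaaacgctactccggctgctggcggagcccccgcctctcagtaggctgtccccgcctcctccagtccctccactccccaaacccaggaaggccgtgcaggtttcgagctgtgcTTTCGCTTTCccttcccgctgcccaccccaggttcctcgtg
The Psmb5 window held the antioxidant core, and the Psmg4 and Psme1 windows held the interferon core. Over the members, 6 of 42 windows (14.3%) held TGACNNNGC, against 12.4% of all 32851 promoters. The interferon core was found in 5 windows (11.9%), against 3.44% of all promoters, and these belonged to Psmb3, Psmd4, Psmd9, Psme1 and Psmg4. The letters CCAAT and TGACGTCA were searched as well. CCAAT was found in 14 windows (33.3%), against 37.4% of all promoters, and TGACGTCA in 0, against 1.79%. A match is a description of the letters and does not show binding.

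The 7 tested alpha subunits had a median difference of 0.33, and 2 rose, Psma7 and Psma1. Psma7 (alpha4; ENSMUSG00000027566, chromosome 2, 180036374 to 180042433, GRCm38) stood at 299 and 271 FPKM in Th0 2 and Th0 3 and at 477 and 401 with dopamine. Both dopamine libraries lay above both Th0 libraries, a difference of 0.62 ± 0.10 (limma adjusted p = 0.0232). Psma1 (alpha6; chromosome 7, 114264606 to 114276118) had 188 and 182 FPKM in Th0 and 289.6 and 261 with dopamine. Its groups did not overlap either, with a difference of 0.57 ± 0.10 (limma adjusted p = 0.0281). Psma4 (alpha3) had the lowest estimate of the ring. It was at 268 and 301 FPKM in Th0 and at 324 and 293 with dopamine, so the groups overlapped and the tables differed in sign (0.11 ± 0.12, limma adjusted p = 0.582). The other 4, Psma2, Psma3, Psma5 and Psma6, were higher in both tables, with estimates from 0.15 to 0.46, and none passed. For Psma5 the limma adjusted p was 0.0547, and it passed with a pseudocount of 0.1 and with a minimum of 5 FPKM. With a common sum the median of the ring was 0.077, against -0.21 for protein-coding genes, and 4 of 7 estimates were positive.

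The 7 tested beta subunits had a median difference of 0.40, or 0.22 without Th0+Dopa 2. All 7 were higher in both tables as deposited and 3 rose, and 6 of 7 estimates were positive with a common sum. Psmb5 (ENSMUSG00000022193, chromosome 14, 54614119 to 54618022), the subunit with the chymotrypsin-like site, had the lowest level of the ring in Th0, 75.3 and 62.4 FPKM, and stood at 156 and 105 with dopamine. This was 2.08-fold in the libraries numbered 2 and 1.68-fold in those numbered 3, a difference of 0.89 ± 0.12 (limma adjusted p = 0.0124), or 0.57 without Th0+Dopa 2. Of the 50-base words in its annotated transcripts, 54.1% also occur in other genes. The processed pseudogene Gm3375, which was not analysed here, holds 46.8% of the words, so the count of Psmb5 is uncertain where reads fit both. The share of words found in other genes was 17.8% for Psmb3, 7.89% for Psmg3 and 5.47% for Psme1. For Psma5, which did not pass, it was 49.1%. For Psma1, Psma7, Psmb4, Psmd3, Psmd5 and Psmg4 at most 1.02% of the words occur in other genes. After correction for GC content and transcript length Psmb5 had 0.59 ± 0.10 (limma adjusted p = 0.0348).

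Psmb3 and Psmb4 are structural members of the beta ring. Psmb3 (beta3; chromosome 11, 97703399 to 97713500) went from 210.0 and 176 FPKM to 318 and 292, a difference of 0.66 ± 0.10 (limma adjusted p = 0.0183). Psmb4 (beta7; chromosome 3, 94884093 to 94886961) was at 224 and 225 FPKM in Th0 and at 411 and 307 with dopamine. Its difference of 0.66 ± 0.13 (limma adjusted p = 0.0377) was 0.87 in the first table and 0.45 in the second, and 0.42 without Th0+Dopa 2. Psmb6, with the caspase-like site, had 276 and 265 FPKM in Th0 and 399 and 319 with dopamine (0.40 ± 0.11, limma adjusted p = 0.0887). Psmb7, with the trypsin-like site, had 147 and 131 FPKM against 180.2 and 165 (0.31 ± 0.10, limma adjusted p = 0.111). The groups did not overlap for these catalytic subunits, yet neither passed. Psmb2 (beta4) had the lowest estimate of the ring, 0.21 ± 0.11 (limma adjusted p = 0.275), from 262 and 248 FPKM in Th0 and 328 and 265 with dopamine.

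**Figure D2:**
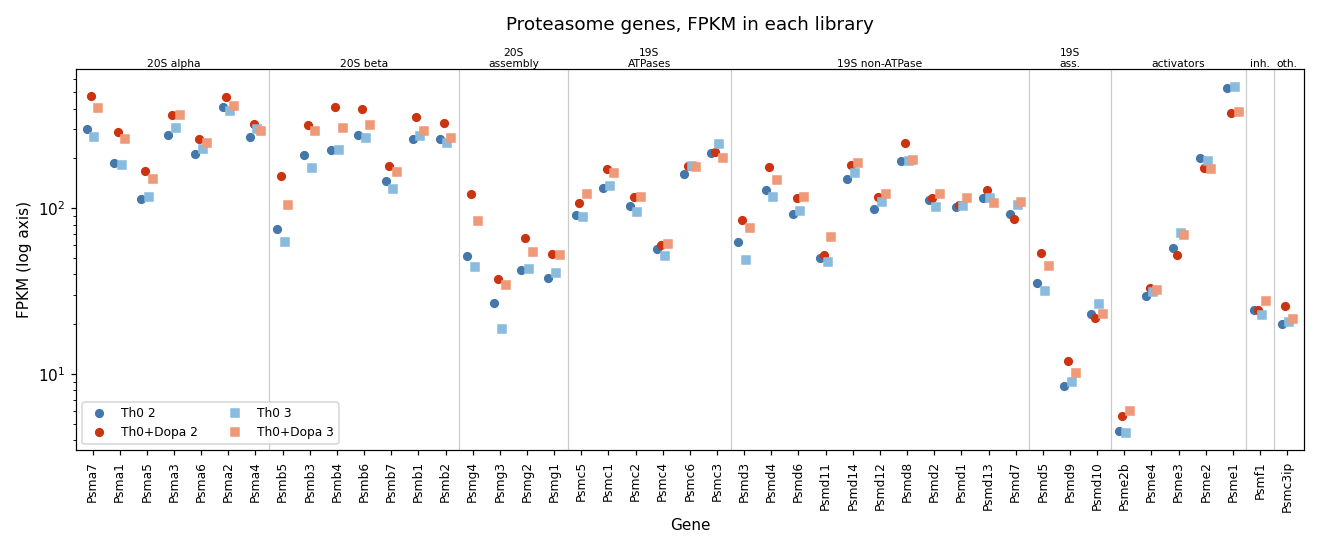
FPKM (vertical, log axis) of the 45 tested genes (horizontal), grouped by role and ordered by their difference, with 1 point per library, blue for Th0 and red for Th0+Dopa. The 20S subunits stood between 62.4 and 477 FPKM, with most red points above the blue ones, and Psme1 shows the reverse at 534 and 541 against 378 and 382.

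The 20S core is built with the help of chaperone pairs, PAC1 and PAC2 (Psmg1 and Psmg2) and PAC3 and PAC4 (Psmg3 and Psmg4), which scaffold the alpha ring. All 4 were higher in both tables, with a median difference of 0.57, the highest of the roles with more than 1 member. Psmg4 (ENSMUSG00000071451, chromosome 13, 34162964 to 34178173) had the highest estimate of the 45. It stood at 51.5 and 44.6 FPKM in Th0 and at 122 and 84.0 with dopamine, 1.06 ± 0.13 (limma adjusted p = 0.00814). The difference of Psmg4 was 0.76 ± 0.10 with GC content and length corrected (limma adjusted p = 0.0211), and 0.76 without Th0+Dopa 2. Its partner Psmg3 (chromosome 5, 139823592 to 139826885) went from 26.8 and 18.8 FPKM to 37.4 and 34.8, 0.66 ± 0.15 (limma adjusted p = 0.0457), or 0.38 without Th0 3. With GC content and length corrected, Psmg3 missed the threshold (0.56 ± 0.15, limma adjusted p = 0.0934). Psmg1 had 38.3 and 41.0 FPKM in Th0 and 53.3 and 52.2 with dopamine (0.40 ± 0.11, limma adjusted p = 0.0828), and Psmg2 had an estimate of 0.49 ± 0.13 (limma adjusted p = 0.0665). All 4 chaperones had positive estimates under each scaling.

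The 6 ATPases of the 19S base had a median difference of 0.20, and 0 of 6 passed. At an unadjusted p under 0.05, 2 of 6 differed, where 27.6% of protein-coding genes did. The median was 0.13 without Th0 3. Psmc5 (Rpt6) had the highest estimate, 0.36 ± 0.11 (limma adjusted p = 0.104), from 90.9 and 88.3 FPKM in Th0 to 108 and 123 with dopamine. Psmc3 (Rpt5) had the lowest, -0.14 ± 0.12 (limma adjusted p = 0.511). It was at 217 and 245 FPKM in Th0 and at 219.9 and 200.04 with dopamine, so its groups overlapped. With small RNA genes left out and a common sum, Psmc3 was called lower. The sign of the ATPases as a role depended on the scaling: 5 of 6 estimates were positive as deposited and 2 of 6 with a common sum. With that sum their median was -0.053, against -0.21 for protein-coding genes.

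Of the 11 other 19S subunits, 1 rose, where 5.67% of protein-coding genes did, and their median difference was 0.19. Psmd3 (Rpn3; chromosome 11, 98682554 to 98695979), a scaffold subunit of the lid, had 62.5 and 49.0 FPKM in Th0 and 85.2 and 76.0 with dopamine. Its groups did not overlap, and the difference was 0.53 ± 0.11 (limma adjusted p = 0.0419), or 0.39 ± 0.10 after the GC and length correction (limma adjusted p = 0.0931) and 0.33 without Th0 3. It overlaps Gm12356 on the opposite strand, the chaperone Psmd5 overlaps Cutal and Psme1 overlaps Emc9, so reads of these pairs cannot be told apart if strand was not used in counting. The ubiquitin receptor Psmd4 (Rpn10) was at 129.6 and 118 FPKM in Th0 and at 178 and 149 with dopamine (0.39 ± 0.10, limma adjusted p = 0.0701). Psmd14 (Rpn11), the enzyme that cuts the ubiquitin chain from the substrate, had 151 and 164 FPKM against 182 and 188 (0.23 ± 0.10, limma adjusted p = 0.211). Psmd7 (Rpn8), the partner of Psmd14, had the lowest estimate, -0.02 ± 0.11 (limma adjusted p = 0.915), with 93.2 and 104 FPKM in Th0 and 86.4 and 109 with dopamine. With a common sum the median of these 11 was -0.065, against -0.21 for protein-coding genes, and 4 estimates were positive.

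Of the 3 chaperones that assemble the 19S base, 1 rose, with a median of 0.31, or 0.17 without Th0+Dopa 2. Psmd5 (S5b; chromosome 2, 34849734 to 34874968) rose from 35.5 and 31.8 FPKM to 54.1 and 44.7, 0.54 ± 0.12 (limma adjusted p = 0.0438). Psmd10 (gankyrin) had 23.1 and 26.5 FPKM in Th0 and 21.8 and 23.2 with dopamine (-0.13 ± 0.13, limma adjusted p = 0.545). Psmd9 (p27) had 0.31 ± 0.17 (limma adjusted p = 0.301) and stood at 8.47 to 11.98 FPKM over the libraries.

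**Figure D3:**
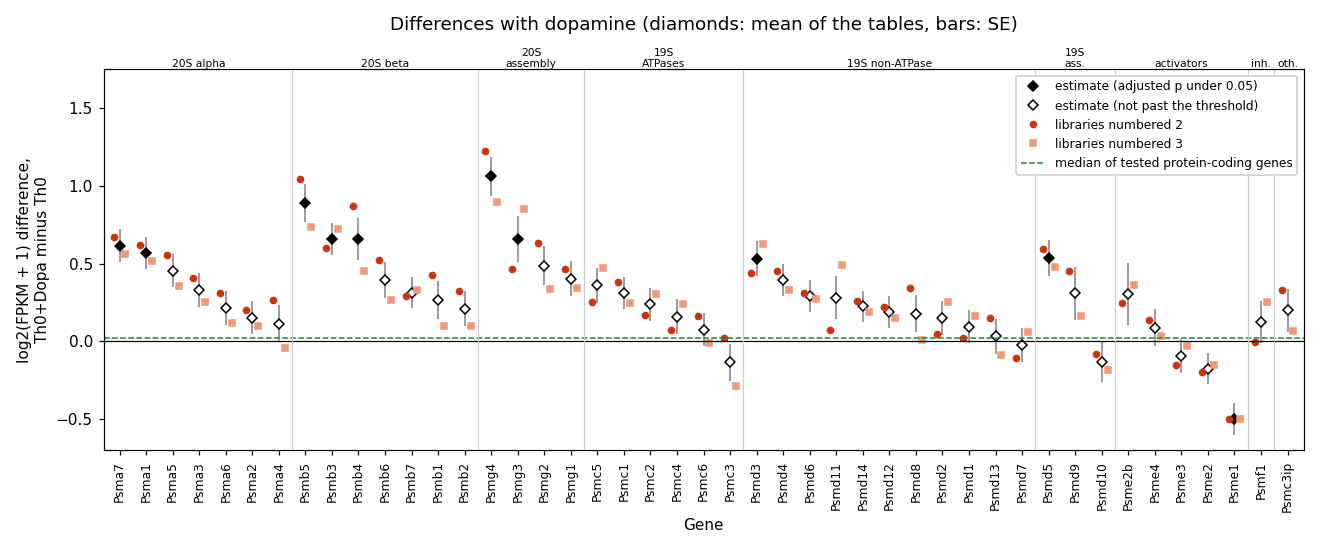
Difference in log2(FPKM + 1), Th0+Dopa minus Th0 (vertical), for the 45 tested genes (horizontal) by role. Circles and squares are the separate tables, diamonds the estimates with SE bars, filled where limma's adjusted p was under 0.05, and the dashed line is the median of tested protein-coding genes at 0.02. The 9 filled diamonds above 0 lie mostly in the 20S rings and their chaperones, and the 1 below 0 is Psme1.

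Of the 5 tested activators, 1 fell and 0 rose, with a median difference of -0.092. That median was 0.035 without Th0+Dopa 2 and 0.018 without Th0 3. Psme1 (PA28alpha; ENSMUSG00000022216, chromosome 14, 55578123 to 55581529) had the highest mean level of the 45 genes, at 534 and 541 FPKM in Th0, and stood at 378 and 382 with dopamine. Its level with dopamine was 0.707-fold that of Th0 in the first table and 0.706-fold in the second, -0.50 ± 0.10 (limma adjusted p = 0.0398), and Psme1 was called lower with a common sum too (-0.75 ± 0.10, limma adjusted p = 0.00502). The summed macrophage markers, 137 and 158 FPKM in Th0 and 16.2 and 16.0 with dopamine, were lower in the same libraries, and their part in the fall of Psme1 was not tested. Its partner Psme2 (PA28beta) had 202 and 193 FPKM in Th0 and 176 and 173 with dopamine. Both dopamine libraries were lower for Psme2, but the difference of -0.17 ± 0.10 did not pass (limma adjusted p = 0.316). It passed only with small RNA genes left out and a common sum. Psme3 (PA28gamma), the nuclear activator, had 58.0 and 70.9 FPKM in Th0 and 52.1 and 69.4 with dopamine (-0.09 ± 0.11, limma adjusted p = 0.633). Psme4 (PA200), known from the degradation of histones, had 29.9 and 31.3 FPKM against 33.1 and 32.1 (0.09 ± 0.12, limma adjusted p = 0.682). Psme2b shares 68.7% of its 50-base words with Psme2, so its values of 4.44 to 6.00 FPKM are uncertain. The inhibitor Psmf1 (PI31) had 24.5 and 22.9 FPKM in Th0 and 24.4 and 27.5 with dopamine, and its tables differed in sign (0.13 ± 0.14, limma adjusted p = 0.597). Psmc3ip, the gene that is no subunit, had 0.20 ± 0.14 (limma adjusted p = 0.402).

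Shares of the summed FPKM of protein-coding genes do not move with the scaling of a library. The 14 tested 20S genes made up 0.623% and 0.589% of it in Th0 2 and Th0 3 and 0.744% and 0.704% with dopamine. This was 1.19-fold in both tables. The inducible Psmb8, Psmb9 and Psmb10 together went from 0.108% and 0.0998% to 0.130% and 0.114%, or 1.21-fold and 1.15-fold. Psmb8 held most of their sum (378 of 558 FPKM in Th0 2) and was higher with dopamine in both tables. The FPKM of Psmb9 and of Psmb10 differed in sign between the tables. A higher share was thus not particular to the constitutive genes, but the summed share does not stand for each inducible gene. The 17 subunits of the 19S regulator held 0.380% and 0.371% in Th0 and 0.375% and 0.401% with dopamine, so the groups overlapped. Psme1 and Psme2 together went from 0.142% and 0.136% to 0.0915% and 0.101%, or 0.643-fold and 0.740-fold. The 4 chaperones of the 20S core went from 0.0307% and 0.0273% to 0.0460% and 0.0409%, which was 1.5-fold in both tables. An exact two-sided permutation test on 2 libraries a group can give no p under 0.333, and no other test was run on these shares.

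**Figure D4:**
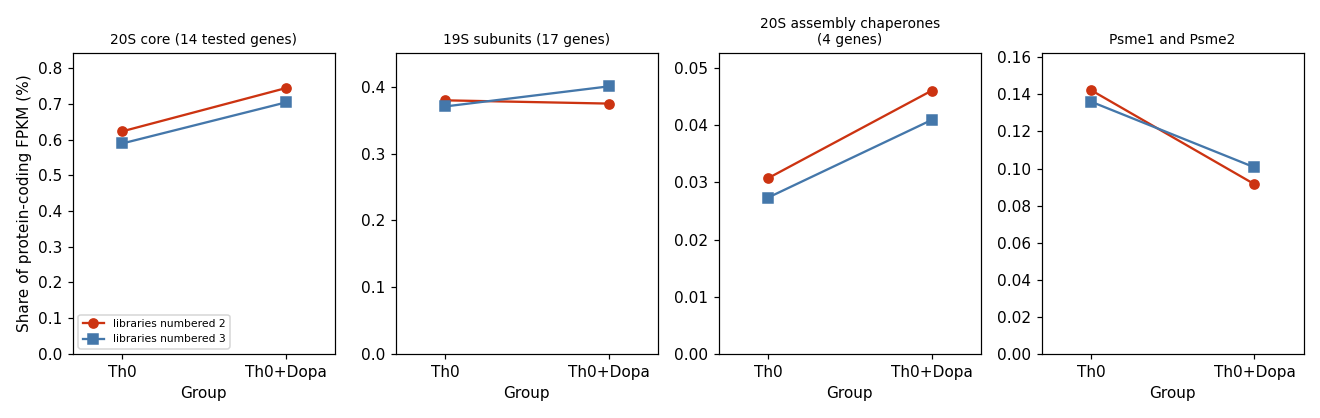
Share of the summed protein-coding FPKM (vertical, percent, from 0) held by 4 groups of genes in Th0 and Th0+Dopa, with 1 line per table. The 20S core and its chaperones were higher with dopamine in both tables, Psme1 and Psme2 were lower, and the lines of the 19S subunits, between 0.371% and 0.401%, differed in direction.

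The inducible catalytic subunits were set against the constitutive ones they replace, as ratios of FPKM within a library. Psmb8 had 378 and 341 FPKM in Th0 and 563 and 447 with dopamine (0.48 ± 0.11, limma adjusted p = 0.05001, just above the threshold). Its ratio to Psmb5 was 5.02 and 5.46 in Th0 and 3.60 and 4.27 with dopamine. Psmb9 had 119 and 142 FPKM against 162 and 137 (0.20 ± 0.15, limma adjusted p = 0.427), and its ratio to Psmb6 went from 0.429 and 0.537 to 0.407 and 0.430. Psmb10 had 61.4 and 54.9 FPKM against 63.6 and 48.0 (-0.07 ± 0.12, limma adjusted p = 0.756), and its ratio to Psmb7 went from 0.418 and 0.419 to 0.353 and 0.291. All 3 ratios were lower with dopamine in both tables, and the differences between these ratios were not tested. They were not corrected for GC content or length. The difference of Psmb5 itself was 0.59 with that correction and 0.57 without Th0+Dopa 2, against 0.89, and its shared words apply to its ratio too. For PA28, the ratio of Psme1 to Psme2 was 2.64 and 2.81 in Th0 and 2.14 and 2.21 with dopamine.

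**Figure D5:**
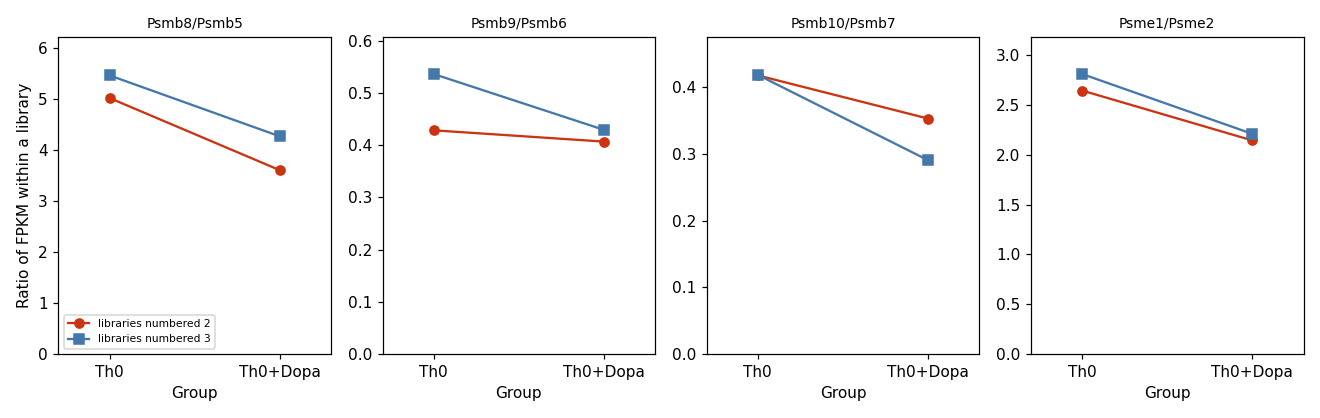
Ratio of FPKM within a library (vertical, from 0) of each inducible catalytic subunit to the constitutive subunit it replaces, and of Psme1 to Psme2, in Th0 and Th0+Dopa, with 1 line per table. Each line goes down with dopamine, from 5.02 to 3.60 and from 5.46 to 4.27 for Psmb8 over Psmb5.

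Of 24 tested genes in a list of other proteasome and ubiquitin genes, 1 rose and 0 fell, against 5.67% and 4.53% of protein-coding genes. At an unadjusted p under 0.05, 6 of the 24 differed, against 27.6% of protein-coding genes. The median of the 24 was 0.21, with 16 positive estimates and 8 negative ones, down to -0.24 for Uchl5. The gene that rose was Adrm1 (Rpn13), the ubiquitin receptor of the 19S base, from 31.5 and 23.4 FPKM to 44.1 and 36.9 (0.55 ± 0.12, limma adjusted p = 0.0459). Nfe2l1, the gene of NRF1, had 18.5 and 14.1 FPKM in Th0 and 22.8 and 28.8 with dopamine (0.64 ± 0.20, limma adjusted p = 0.103). Ngly1, the glycanase that activates NRF1, had 0.49 ± 0.13 (limma adjusted p = 0.0701). Ddi2, listed with Nfe2l1 and Ngly1, had -0.20 ± 0.24 (limma adjusted p = 0.637), from -0.53 in the first table and 0.13 in the second. Pomp, which completes the assembly of the core, had 0.21 ± 0.10 (limma adjusted p = 0.239). Rps27a, whose product is ubiquitin fused to a ribosomal protein, had 0.45 ± 0.12 (limma adjusted p = 0.0769).

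The calls of the 10 members all held with a pseudocount of 0.1, a minimum of 5 FPKM and the median of ratios, and not in other fits. Without the block for the table and without limma's trend, 0 of the 45 members passed in either direction, and 0 passed in any fit that left out a library. The share of members at an unadjusted p under 0.05, set against all genes, depended on the fit. It was 20 members (44.4%) against 24.2% of all tested genes without the block, and 12 (26.7%) against 24.0% without the trend. Without a filter on low values it was 20 of 46 members (43.5%) against 17%. With the GC and length correction it was 29 members (64.4%) against 25.5%. Members then stood at 9 (20%) against 16.7% without Th0 2, and at 11 (24.4%) against 16.2% without Th0+Dopa 2. The share was below that of all genes without Th0 3, 2 members (4.4%) against 11.3%, and above it without Th0+Dopa 3, 17 (37.8%) against 24.2%. With a common sum it was also below, 10 members (22.2%) against 30.8%. The sign of the 10 changed in none of these fits. Without the block or the trend the estimates are the same by design, so there the sign could not change. The common sum shifted the median of protein-coding genes by -0.23, while the 10 estimates were about 0.50 or more in size as deposited. The kept sign in these 3 fits is therefore no support for the calls. Without a filter on low values 5 of the 10 passed. The GC and length correction left 7 of the 10, with Psmb4, Psmd3 and Psmg3 lost, and Psma3 and Psmb7 passed in addition. As deposited, the differences correlated with GC content at r = 0.34 over protein-coding genes and 0.24 over the members.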

How the data were processed

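The authors deposited FPKM values in 2 tables of 38282 genes each. Per the submitters' processing notes, bcl2fastq 1.8.4, Trimmomatic 0.35, FastQC 0.10.1, STAR 2.4.2 and Cufflinks 2.2.1 were used with mm10. The sources used here name no annotation release, normalization option or strand setting, so overlapping genes are uncertain. Per the labels' protocols, libraries were stranded total RNA with ribosomal RNA depleted. GENCODE M21 (GRCm38) named 36423 IDs.

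Genes with a mean of at least 1 FPKM were tested with limma 3.58.1 (R 4.3.3, trend, two-sided) on log2(FPKM + 1), which understates changes of low genes. Residual degrees of freedom were 1, and the prior added 4.70. The code was tested on simulated data.

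Read counts were not used. Low values of genes with 1 transcript fell near multiples of 1 fragment (75.3% to 82.7% within 0.15), which put every tested member at 17.7 fragments (Psme2b) or more per library, and Psmg4 at 110 to 385.

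Values are given for called members, for the highest and lowest estimate of each role and for 11 members chosen by function. Others were named after their values were seen. Members and lists were chosen with earlier results of these data known. Alternatives changed the pseudocount, the filter, the scaling and limma's settings, or added a correction for GC content and length (loess, span 0.3) and each library was also left out in turn, in a fit with no block after median-of-ratios scaling across the tables, where a lone library is assumed to vary like the others.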

Additional observations from a re-analysis of the deposited data

How the results depend on the processing

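The count of members called higher, 9 as reported, was 0 without the replicate block, 0 without limma's trend, 5 without a filter on low values and 2 with a common FPKM sum. The count called lower, 1 as reported, was 0, 0 and 0 in the first 3 of these fits, and 3 with small RNA genes left out and a common sum. In fits that left out a library, 0 members were called in either direction, and the members' median ranged from 0.20 to 0.27. It was 0.011 with a common sum, 0.063 with small RNA left out and 0.31 in the table of libraries numbered 2 alone, against 0.27. Over all genes, 717 higher and 501 lower calls became 256 and 240 without the replicate block, 442 and 298 without a filter, 106 and 150 without the trend, and 376 and 1064 with a common sum. There were 411 higher calls after the GC and length correction and 1462 lower calls with small RNA left out. Between 0 and 13 genes were called higher and between 0 and 9 lower when a library was left out. Of all calls, 58.9% were higher as deposited, 26.1% with a common sum and 25.9% without small RNA. The cause of these changes was not tested. Deviations of libraries with the same number from their group means correlated at r = 0.0869 over 11423 genes, and the labels tie no number to an animal or culture, so the block stands for the separate tables.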
